A study of Mus musculus with 6 samples.

Results

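Kupffer cell identity genes were read out of gene-level RNA-seq of F4/80+ cells from mouse liver tumours. The set holds 10 genes, Clec4f, Timd4, Vsig4, Cd5l, Fcna, Id1, Id3, Spic, C6 and Cd207, chosen by symbol and each found as 1 row among the 55401 rows of the table. Tumours were grown from Hepa 1-6 cells, a mouse hepatoma line, placed in the right liver lobe, and F4/80+ cells were collected 14 days later. In 3 libraries the tumour cells were controls (genotype label WT Control), and in the other 3 they overexpressed Sms, the spermine synthase gene, after lentiviral transfer (Sms-OE). The genetic change was made in the injected cells and not in the host cells from which F4/80+ cells were sorted. In these sorted cells Sms itself stood at 26.0, 28.3 and 26.2 CPM (counts scaled to library size) in the control libraries and at 32.9, 33.2 and 33.2 CPM in Sms-OE (log2 fold change 0.30 ± 0.09 SE, adjusted p = 0.0382 by edgeR). These values do not give the level in the tumour cells. Whether tumour cell RNA carried into the sorted samples added to them was not tested. Libraries held 49833764 to 58154006 counts. No further treatment was given in either group. The labels do not state the strain, sex or age of the mice, the vector in the control cells, the number of mice behind a library or whether replicates came from separate mice, so p-values measure only the spread between these samples.

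Kupffer cells are the macrophages that reside in the sinusoids of the liver, where they take up bacteria, dying cells and old red cells from the blood. Most are seeded before birth and renew themselves locally, and after their loss monocytes can enter the niche and acquire the same genes. Their identity is known to depend on signals from neighbouring stellate, endothelial and liver cells: Notch ligands, BMP and TGF-beta family ligands, and sterols that act through the nuclear receptor LXR-alpha, together with factors such as ID3, SPIC and ZEB2. CLEC4F is almost exclusive to mouse Kupffer cells, TIM4 marks the long-lived cells among resident macrophages, and newly recruited macrophages usually carry little of it.

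Of the 10 members, 8 were higher in Sms-OE than in control libraries and none was lower. They were Clec4f (3.62-fold), C6 (3.35-fold), Timd4 (3.16-fold), Vsig4 (2.56-fold), Cd5l (2.51-fold), Fcna (2.11-fold), Id3 (1.88-fold) and Id1 (1.73-fold). Spic and Cd207 did not pass the threshold. No member was lower by edgeR, DESeq2 or limma-voom, and 0 were lower at an unadjusted p under 0.05. Across all 18277 genes tested 26.9% passed the same threshold (an adjusted p under 0.05 in edgeR's quasi-likelihood test, with Benjamini-Hochberg adjustment), 12.5% with a higher and 14.3% with a lower level in Sms-OE. The median log2 fold change of the members was 1.20, beside -0.00060 over all genes tested. In 9 of 10 members every Sms-OE library lay above every control library, which held for 20.8% of all genes tested. The members were chosen with earlier results of these data known, so the shares beside all genes are a description and not a test. Because whole sorted samples were measured, a larger share of Kupffer cells and more of these RNAs per cell cannot be told apart.

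**Figure D1:**
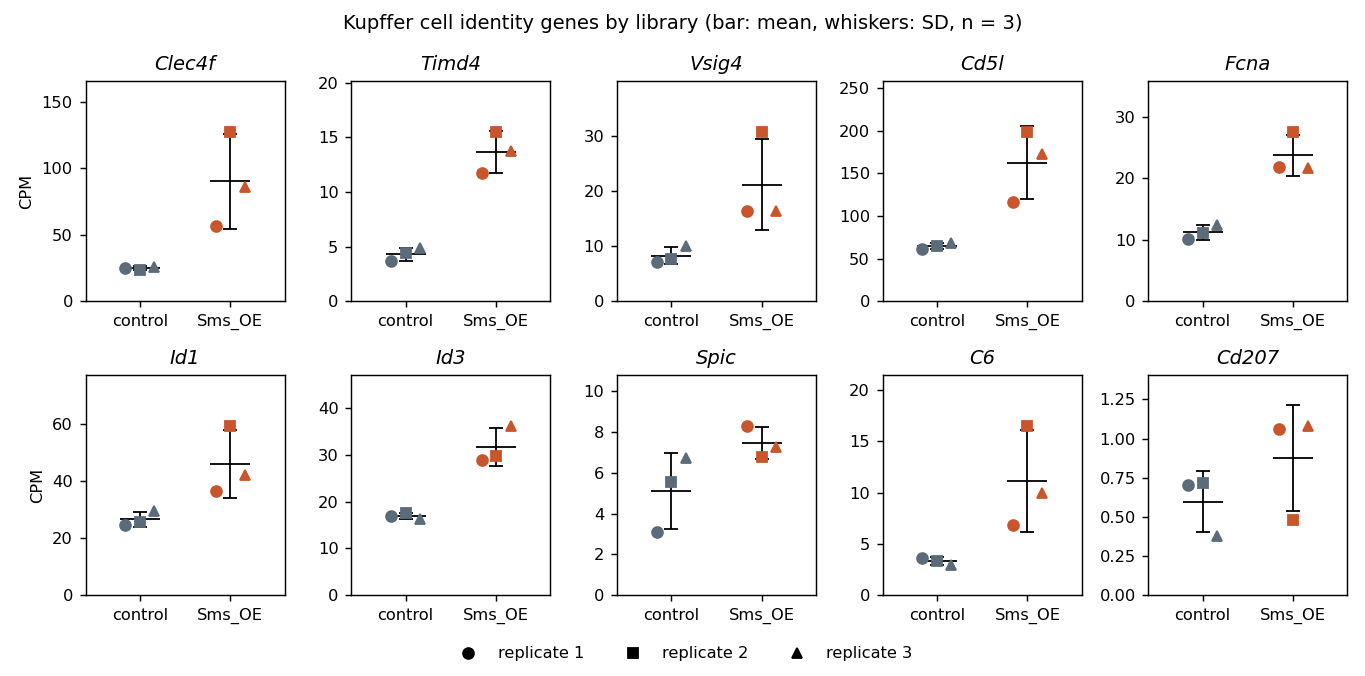
Level of each of the 10 genes in CPM (counts scaled to library size, linear axis from 0) in the 3 control and 3 Sms-OE libraries. Symbols mark the replicate, the long bar the mean and the whiskers the SD. The groups are separate for every gene except Cd207, and Sms-OE replicate 2 is the highest library for 7 of the 10.

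The 4 sequences below are shown because they stand in front of the 3 members with the largest rises (Clec4f, C6 and Timd4) and of Cd207, the genomic neighbour of Clec4f that did not pass the test. Each is the 250 bases before the transcription start on the gene's own strand, 5′ to 3′, from RefSeq's GRCm38.p6. Capitals mark AGGTCA, the sequence read singly or as a repeat by many nuclear receptors including LXR, or GAGGAA, a short core of ETS family sites such as those of PU.1 and SpiC, on either strand.
Clec4f, chr6:83656117-83656366, minus strand: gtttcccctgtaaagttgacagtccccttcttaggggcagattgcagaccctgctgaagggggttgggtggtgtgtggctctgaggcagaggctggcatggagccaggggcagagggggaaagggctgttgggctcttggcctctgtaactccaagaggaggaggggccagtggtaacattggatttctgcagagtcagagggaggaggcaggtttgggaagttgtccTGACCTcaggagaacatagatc
C6, chr15:4726960-4727209, plus strand: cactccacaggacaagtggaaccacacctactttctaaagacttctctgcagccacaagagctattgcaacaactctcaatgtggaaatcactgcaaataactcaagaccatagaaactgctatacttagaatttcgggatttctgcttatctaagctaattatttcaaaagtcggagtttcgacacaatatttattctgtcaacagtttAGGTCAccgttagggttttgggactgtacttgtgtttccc
Timd4, chr11:46810549-46810798, plus strand: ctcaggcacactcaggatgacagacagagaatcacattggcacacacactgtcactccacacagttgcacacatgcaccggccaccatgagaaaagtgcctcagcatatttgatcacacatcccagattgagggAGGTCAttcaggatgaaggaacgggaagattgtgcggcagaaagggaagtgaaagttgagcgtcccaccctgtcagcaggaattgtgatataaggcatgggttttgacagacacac
Cd207, chr6:83677858-83678107, minus strand: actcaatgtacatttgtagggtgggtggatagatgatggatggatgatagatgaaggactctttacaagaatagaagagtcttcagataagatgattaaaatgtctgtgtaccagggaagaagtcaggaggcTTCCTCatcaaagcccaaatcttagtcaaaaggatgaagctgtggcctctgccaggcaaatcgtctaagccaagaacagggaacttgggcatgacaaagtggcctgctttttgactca

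Promoter windows were found for 9 of the 10 members, and Id1 is named only. The sequence AGGTCA was present in 3 of 9 windows, those of Clec4f, Timd4 and C6, and in 14.0% of all 32851 windows of this length. In Clec4f it lay 22 to 17 bases before the start, read on the opposite strand, in C6 40 to 35 bases and in Timd4 116 to 111 bases before it. The core GAGGAA was present in 5 of 9 windows (Fcna, Cd5l, Id3, Vsig4 and Cd207), against 23.3% of all windows. The MAF sequence TGCTGA was in 5 of 9 windows (16.1% of all) and the E-box CANNTG in 5 of 9 (66.2% of all). On both strands no member window held the LXR repeat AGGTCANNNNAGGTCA (0.0152% of all windows), the longer ETS core GAGGAAGT (2.44%), the RBPJ sequence GTGGGAA (5.42%), the SMAD palindrome GTCTAGAC (0.167%), the GC-rich BMP element GGCGCC (9.59%) or TATAAA (12.4%). AGGTCA is part of its repeat, and GAGGAA of the longer ETS core. These matches describe letters in short windows and were not tested against the fold changes.

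Among the surface receptors, Clec4f, the gene of a C-type lectin that binds galactose-type sugars, stood at 25.0, 23.5 and 26.1 CPM in control replicates 1 to 3. In Sms-OE replicates 1 to 3 it stood at 56.9, 127 and 86.0 CPM. The control libraries were closely grouped, and the lowest Sms-OE library lay above the highest control. The log2 fold change was 1.86 ± 0.26 (SE), with an adjusted p of 0.00243 by edgeR. Clec4f (ENSMUSG00000014542) lies at chr6:83644542-83656187 on the minus strand of GRCm38.

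Timd4, the gene of the phosphatidylserine receptor TIM4 that binds dying cells, was at 3.67, 4.46 and 4.83 CPM in the controls and at 11.7, 15.5 and 13.7 CPM in Sms-OE. Both groups were tight, with an SD of 13.7% of the mean in controls and 13.8% in Sms-OE. Its log2 fold change of 1.66 ± 0.18 (SE) had the smallest adjusted p of the set, 0.000328 by edgeR, which placed it at rank 135 of the 18277 genes tested. The gene (ENSMUSG00000055546) lies at chr11:46810800-46844332 on the plus strand.

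Vsig4, which encodes the complement receptor CRIg that captures opsonized bacteria, was at 7.18, 7.66 and 10.02 CPM in the controls. It was at 16.4, 30.7 and 16.4 CPM in Sms-OE, so that 1 library, Sms-OE replicate 2, stood well above the other two. The log2 fold change was 1.35 ± 0.25 (SE, adjusted p = 0.00440 by edgeR), and 0.98 without Sms-OE replicate 2. The gene (ENSMUSG00000044206) lies at chrX:96247203-96293438 on the minus strand.

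Cd207, the gene of the lectin langerin, best known from Langerhans cells and also used as a Kupffer cell gene, was the weakest signal of the set. Its values were 0.701, 0.716 and 0.375 CPM in the controls and 1.06, 0.482 and 1.08 CPM in Sms-OE, from between 18 and 56 counts a library. The groups overlapped, because Sms-OE replicate 2, the library with the most Clec4f, lay below 2 of the 3 controls. The log2 fold change was 0.55 ± 0.48 (SE, adjusted p = 0.445 by edgeR), so a difference was not detectable in these libraries. Cd207 (ENSMUSG00000034783, chr6:83671215-83677857, minus strand) lies 15.0 kb from Clec4f on the same strand with no protein-coding gene between them, and whether the fold changes of these neighbours differ was not tested.

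Among the secreted proteins, Cd5l, the gene of AIM, a scavenger protein that macrophages release into the blood, had the highest level of the set. It stood at 61.1, 65.1 and 68.4 CPM in the controls and at 116, 199 and 173 CPM in Sms-OE. The log2 fold change was 1.33 ± 0.17 (SE, adjusted p = 0.000861 by edgeR). Cd5l (ENSMUSG00000015854, chr3:87357881-87371073, plus strand) supplied between 38.1% and 42.5% of the summed CPM of the 10 genes in every library, a share that was nearly the same in both groups.

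Fcna, the gene of ficolin A, a lectin that starts the lectin pathway of complement, was at 10.1, 11.1 and 12.5 CPM in the controls and at 21.9, 27.5 and 21.7 CPM in Sms-OE. All Sms-OE values lay above all control values, and the log2 fold change was 1.08 ± 0.14 (SE, adjusted p = 0.000816 by edgeR). Fcna (ENSMUSG00000026938, chr2:25624666-25628030, minus strand) overlaps the antisense gene Fcnaos, which was at 0 in 5 libraries and at 0.0386 CPM in Sms-OE replicate 3.

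C6, the gene of a complement component of the membrane attack complex, was at 3.66, 3.33 and 2.94 CPM in the controls and at 6.79, 16.5 and 9.99 CPM in Sms-OE. It was the most variable member that passed the test, with an SD of 44.7% of the mean in Sms-OE against 10.9% in the controls. The log2 fold change was 1.74 ± 0.29 (SE, adjusted p = 0.00256 by edgeR). C6 (ENSMUSG00000022181, chr15:4727175-4814967, plus strand) is made by hepatocytes as well. Of 12 hepatocyte markers 10 were lower in Sms-OE and none was higher. Their summed level ranged from 994 to 1298 CPM among control libraries and from 683 to 929 CPM among Sms-OE libraries. Alb, the albumin gene, was at 358 to 465 CPM in the controls and at 142 to 226 CPM in Sms-OE, and Apoc3 at 1.45 to 2.94 CPM and at 0.120 to 0.190 CPM. Hp and Trf, the genes of haptoglobin and transferrin, did not pass and stood at 290 to 332 CPM and 230 to 337 CPM in Sms-OE.

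Among the nuclear factors, Id1 and Id3 encode small helix-loop-helix proteins without a DNA-binding region that sequester other factors, and both are classical targets of BMP signalling. Id3 was at 17.0, 17.5 and 16.2 CPM in the controls and at 29.0, 29.8 and 36.3 CPM in Sms-OE, a log2 fold change of 0.91 ± 0.12 (SE, adjusted p = 0.000809 by edgeR). Id1 was at 24.6, 25.7 and 29.4 CPM in the controls and at 36.7, 59.5 and 42.1 CPM in Sms-OE, a log2 fold change of 0.79 ± 0.17 (SE, adjusted p = 0.00686 by edgeR). In both genes every Sms-OE library was higher than every control, and the highest library was Sms-OE replicate 2 for Id1 and Sms-OE replicate 3 for Id3. The relatives Id2, on average at 223 and 234 CPM in control and Sms-OE libraries, and Id4, on average at 0.726 and 0.0709 CPM, gave log2 fold changes of 0.07 ± 0.11 and -3.32 ± 1.15 (SE) and did not pass (adjusted p = 0.679 and 0.0563 by edgeR). Id1 (ENSMUSG00000042745) lies at chr2:152736251-152737410 and Id3 (ENSMUSG00000007872) at chr4:136143497-136145755, both on the plus strand.

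Endothelial cells also express Id1 and Id3. Of 10 markers of liver sinusoidal endothelium 7 were lower in Sms-OE and none higher, and their summed level was 203 to 259 CPM in control libraries and 99.99 to 109 CPM in Sms-OE libraries. In this list Dnase1l3 fell 2.30-fold and Kdr, the receptor of VEGF, 2.89-fold. Dnase1l3 alone was at 122 to 163 CPM in the controls and at 52.4 to 69.2 CPM in Sms-OE. Outside the list, Cdh5 and Pecam1, also known from endothelium, did not fall. Cdh5 went from 6.37 to 11.0 CPM on average and was called higher, though its groups overlapped (log2 0.79 ± 0.26 SE, adjusted p = 0.0495 by edgeR). It is also counted among the further Kupffer cell genes below. Pecam1 gave -0.01 ± 0.10 (SE).

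Spic, the gene of an ETS factor induced by haem and needed by iron-recycling macrophages, was at 3.09, 5.53 and 6.71 CPM in the controls and at 8.31, 6.79 and 7.25 CPM in Sms-OE. The groups did not overlap, but control replicate 3 came within a small distance of Sms-OE replicate 2, and the controls had an SD of 36.1% of the mean. Its log2 fold change of 0.55 ± 0.26 (SE) did not pass (adjusted p = 0.157 by edgeR). Spic (ENSMUSG00000004359) lies at chr10:88674772-88685015 on the minus strand.

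Levels were compared between genes as CPM per kb of the longest transcript. In the controls the order was Cd5l (31.9 ± 1.8), Id1 (22.9 ± 2.2), Id3 (13.2 ± 0.51), Clec4f (10.1 ± 0.53), Fcna (8.17 ± 0.87), Vsig4 (5.79 ± 1.1), Spic (2.23 ± 0.81), Timd4 (1.99 ± 0.27), C6 (1.15 ± 0.13) and Cd207 (0.393 ± 0.13), as mean CPM per kb ± SD, n = 3. Only Spic and Timd4 overlapped among the 9 neighbouring pairs of this order. In Sms-OE the first places went to Cd5l (79.9 ± 21), Id1 (39.7 ± 10) and Clec4f (36.5 ± 14 CPM per kb), and Clec4f moved from rank 5140 to rank 1744 among the genes tested. There 5 of 9 neighbouring pairs overlapped in their library values.

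Within the groups the members did not all follow the same library. Sms-OE replicate 2 was highest for 7 of 10 members and Sms-OE replicate 1 lowest for 6. Control replicate 3 was highest for 7. The summed level of the 10 genes was 156, 165 and 177 CPM in the controls and 305, 513 and 408 CPM in Sms-OE replicates 1 to 3. Sms-OE replicates 2 and 3 also held 4975 and 4934 CPM of haemoglobin RNA, against 42.8 to 213 CPM in the other 4 libraries. Leaving out both, a comparison chosen after seeing the data that sets 1 Sms-OE library against 3 controls, gave 6 of 10 members higher, where 3.39% of the genes tested were called higher. Clec4f then had a log2 fold change of 1.19 (adjusted p = 0.00446 by edgeR) and Cd5l one of 0.83, while Id1 (0.46, adjusted p = 0.103) and C6 (1.03, adjusted p = 0.061) no longer passed. The lone Sms-OE library is assumed in that fit to vary like the controls.

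Expressed against genes common to macrophages, the members were also higher. Their summed CPM was 1.71%, 1.81% and 1.86% of that of 14 general macrophage genes in the controls, and 3.26%, 6.30% and 5.10% in Sms-OE. The part of other cells in the 14 genes was not tested, so these shares are not levels per macrophage. Adgre1, the gene of F4/80 by which the cells were isolated, was at 334 to 539 CPM in the controls and at 521 to 660 CPM in Sms-OE and did not pass (log2 0.34 ± 0.17 SE, adjusted p = 0.160 by edgeR). Of the 14 general genes 1 rose, the integrin Itgam (CD11b), and 7 fell, among them Aif1, C1qb and C1qc (log2 -0.92 ± 0.09, -0.66 ± 0.10 and -0.51 ± 0.09 SE). When libraries were scaled to equal levels of these 14 genes, 9 of 10 members were higher, beside 23.2% of all genes tested. Their median log2 fold change was then 1.46, and that of all genes 0.25. Clec4f was then at 2.12 and Spic at 0.79 (adjusted p = 0.0382), while Cd207 at 0.78 still did not pass.

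A list of 17 further genes known from Kupffer cells did not move as one. Of 16 tested, 7 rose, 2 fell and 7 did not pass, with a median log2 fold change of 0.59. Cd163, a scavenger receptor for haemoglobin, rose 4.72-fold (1.80 to 8.48 CPM on average, log2 2.24 ± 0.38 SE), and the folate receptor Folr2 1.97-fold (7.86 to 15.5 CPM). Marco, a scavenger receptor for bacteria, rose from 27.0, 28.9 and 31.2 CPM to 109, 46.1 and 72.8 CPM, highest in Sms-OE replicate 1, where Clec4f was lowest. The rise of Hmox1 (haem oxygenase, 206 to 287 CPM) was smaller, and Cdh5, Slc16a9 and Adrb1 also passed. Vcam1, the adhesion molecule, fell 2.11-fold (120 to 56.6 CPM, log2 -1.08 ± 0.12 SE) and Gfra2, a receptor of the GDNF family, 2.64-fold (6.08 to 2.30 CPM). The iron exporter Slc40a1, on average at 154 and 155 CPM in control and Sms-OE libraries, gave a log2 fold change of 0.01 ± 0.08 and the lectin-like receptor Clec1b one of -0.16 ± 0.13 (SE). On leaving out both haemoglobin-rich libraries, 2 of these genes were higher and 2 lower. Marco, Hmox1, Cdh5, Slc16a9, Adrb1, Slc40a1 and Clec1b were named after their values were seen.

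**Figure D2:**
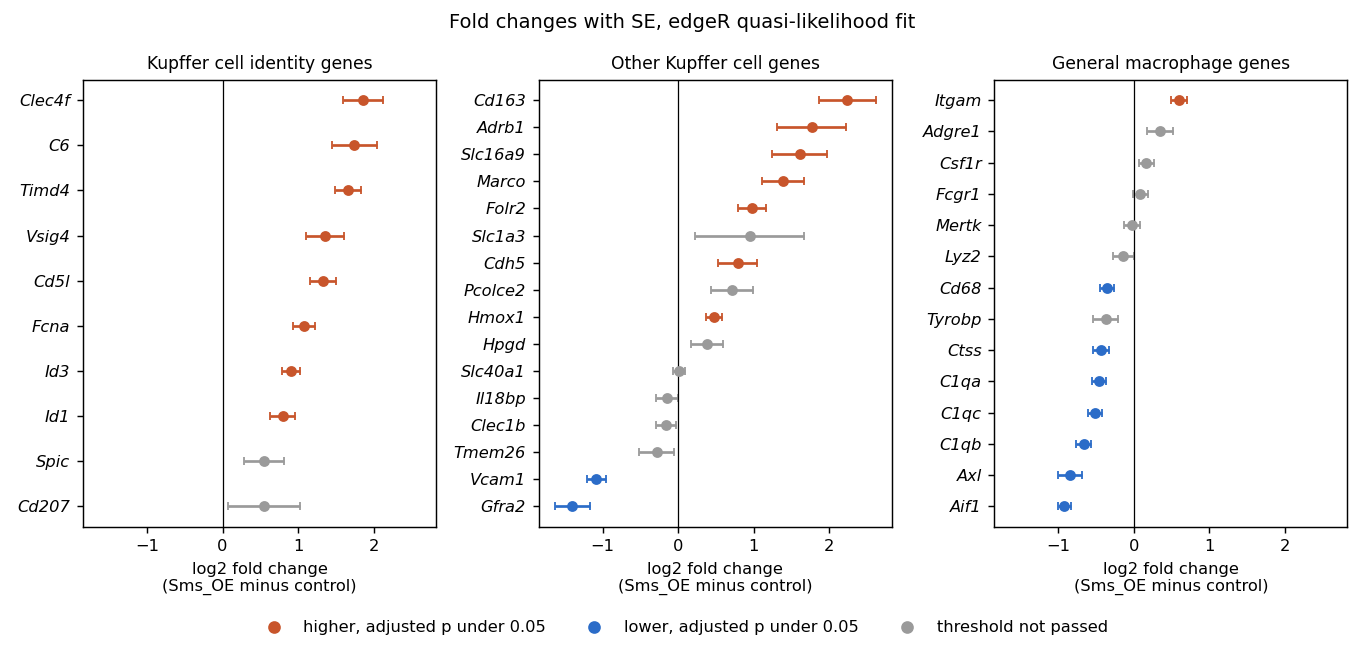
Log2 fold change (Sms-OE minus control) with its standard error for the 10 identity genes, 16 other Kupffer cell genes and 14 general macrophage genes, coloured by whether the adjusted p was under 0.05. The identity genes lie to the right of 0 (8 of 10 called higher), the other Kupffer genes lie on both sides, and 7 of 14 general macrophage genes are called lower.

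The genes tied to Kupffer cell identity as regulators were examined next. Of 15 lineage transcription factors 3 rose, 3 fell and 9 did not pass, with 0.10 as the median log2 fold change. Nr1h3, the gene of LXR-alpha, was at 80.4, 76.2 and 85.6 CPM in the controls and at 45.8, 43.0 and 48.0 CPM in Sms-OE (log2 -0.82 ± 0.09 SE, adjusted p = 0.000326 by edgeR). This was a 1.77-fold fall. Tfec and Irf8 fell 1.80-fold and 1.46-fold, and Zeb2, a repressor needed to keep macrophage identity, rose 1.40-fold (151 to 212 CPM). With offsets for transcript length and GC content none of these factors was called higher by edgeR (2 at an unadjusted p under 0.05), and 8 of 10 members were, beside 7.97% of all genes.

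The list of LXR target genes split. Of 14 tested 3 rose and 2 fell. Abca1, the cholesterol exporter, rose 3.30-fold, Mylip, which degrades the LDL receptor, 1.95-fold and Arl4c 1.65-fold, while Abcg3 fell 1.59-fold. Scd2, named after its values were seen, fell by 0.75 on the log2 scale. The median log2 fold change of the list was -0.0045.

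In the BMP and activin receptor list 1 of 15 tested genes rose and 3 fell. Smad7, an inhibitory SMAD induced by TGF-beta family signals, went from 23.2, 23.8 and 23.9 CPM to 48.7, 41.8 and 49.3 CPM (log2 0.98 ± 0.10 SE, adjusted p = 0.000283 by edgeR). The ligand Bmp2 fell 2.80-fold (4.87 to 1.74 CPM), and the receptor genes Acvrl1 (ALK1) and Eng (endoglin) fell 1.35-fold and 1.67-fold. Gdf2 and Bmp10, the liver ligands of ALK1, were at or below 0.412 CPM in every library and were not tested. The summed level of the endothelial markers given above was lower in the same libraries, and its part in the Bmp2, Acvrl1 and Eng values was not tested.

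Of 13 Notch genes tested 7 rose, none fell and 6 did not pass, beside 12.5% of all genes tested called higher. Their median log2 fold change was 0.64 (7 rose and 0 fell by DESeq2 and by limma-voom as well, and 0 were lower at an unadjusted p under 0.05). Notch1 was at 119, 160 and 149 CPM in the controls and at 250, 322 and 324 CPM in Sms-OE (log2 1.06 ± 0.14 SE, adjusted p = 0.000737 by edgeR). Notch4 rose 3.99-fold, the ligand Jag1 2.65-fold and the coactivator Maml1 1.56-fold. The target genes Hes1 (12.9 to 26.5 CPM) and Nrarp (1.74 to 4.27 CPM) rose too and are named after their values were seen, as is Notch2 (228 to 338 CPM). Dll4, the endothelial ligand known to act on Kupffer cells, was at 0.771 to 1.34 CPM in the controls and 0.379 to 0.792 CPM in Sms-OE and did not pass (adjusted p = 0.304 by edgeR). Without both haemoglobin-rich libraries 5 Notch genes were higher.

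**Figure D3:**
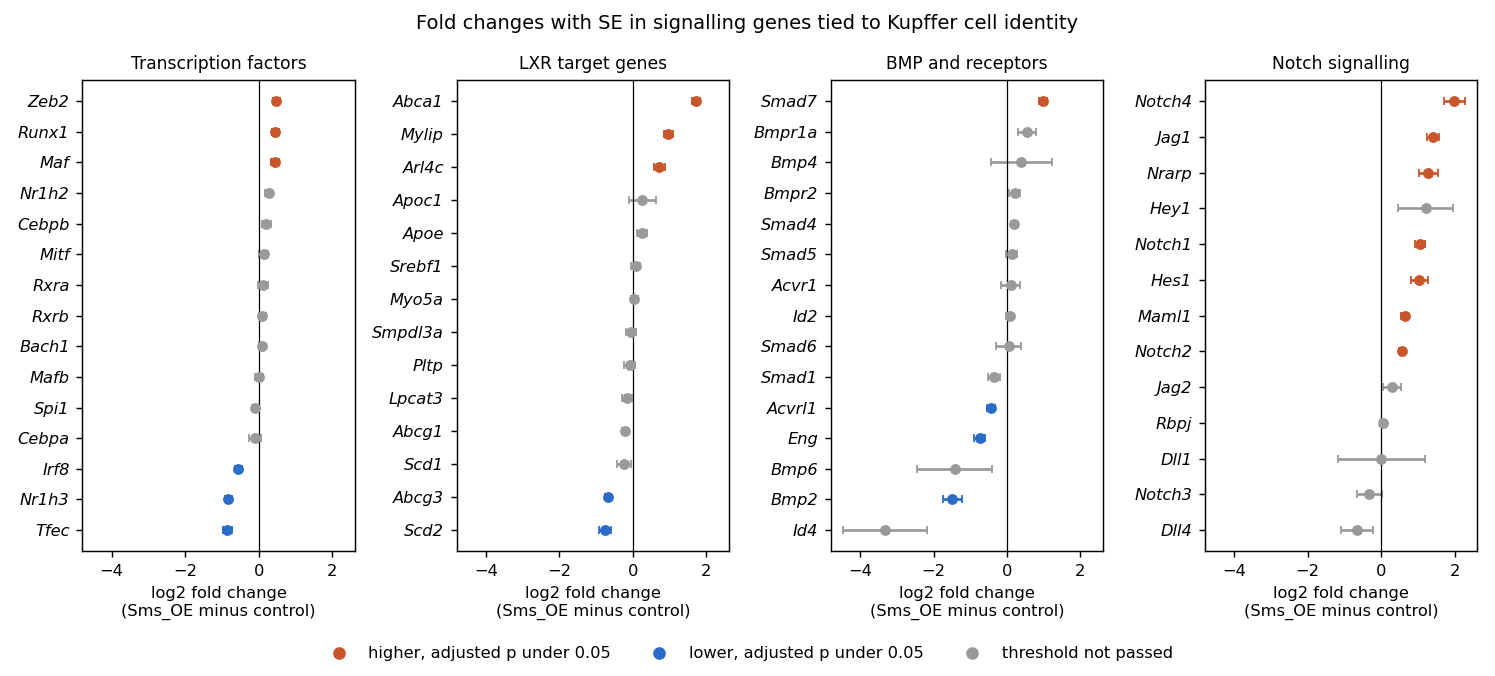
Log2 fold change (Sms-OE minus control) with its standard error for lineage transcription factors, LXR target genes, BMP and receptor genes, and Notch genes, with a common axis. Notch genes hold 7 called higher and none lower, whereas the other 3 lists hold calls in both directions.

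Markers of other cells were summed to show what moved with the members. Stellate cell and fibroblast markers, from cells that feed Kupffer cells in the normal niche, were at 134 to 144 CPM in the controls and 206 to 254 CPM in Sms-OE, with 4 of 9 higher (Ecm1, Dcn, Des and Rgs5). Without Sms-OE replicate 1 that count was 3, and without any other single library it was 2. Ecm1 (48.6 to 86.4 CPM on average) and Dcn (45.3 to 85.0 CPM) had the highest levels in this list. Col1a1, Col3a1, Pdgfrb, Reln and Hgf did not pass. Lrat, a defining stellate gene, was at 0.0833 to 0.358 CPM in the controls and at 0 in Sms-OE, too low to be tested. Peritoneal macrophages share Timd4 and Vsig4 with Kupffer cells. Of 10 peritoneal markers 1 rose, Cxcl13, and their defining factor Gata6 was at or below 1.08 CPM in every library. The 10 markers summed to 860 to 1870 CPM in the controls and 1351 to 2134 CPM in Sms-OE. Alox15 was the highest of them (843 and 668 CPM on average in control and Sms-OE libraries). Serpinb2 (257 to 595 CPM) and Saa3 (281 to 554 CPM) did not pass. Of 6 splenic red pulp genes tested none rose and 2 fell, Ear2 and Dnase2a. Of 12 genes of monocytes and recruited macrophages 4 were higher and 3 lower, with F13a1 3.45-fold and Fn1 2.36-fold higher and the chemokine receptor Ccr2 1.79-fold lower. Without control replicate 1 or without Sms-OE replicate 3 the number of these genes called higher was 2. Lipid-associated macrophage genes gave 2 higher and 4 lower of 10, with Lpl 3.28-fold lower and Spp1 2.40-fold higher. The platelet genes gave 1 of 5 higher, Pf4, and the erythroid genes none of 5 by edgeR, 5 at an unadjusted p under 0.05 and 5 by DESeq2, with Hbb-bs at 88.0 CPM in Sms-OE replicate 1 and at 1904 and 1879 CPM in the others. Hepatoma markers gave 2 lower of 4, neutrophil markers 1 higher of 9, dendritic cell markers 1 higher and 3 lower of 10, T and NK cell markers 1 higher of 8 and B cell markers no call among 6. Several of these small counts moved when 1 library was left out. Higher calls went to 1 among the lipid-associated genes (without control replicate 1 or Sms-OE replicate 1), to 2 among platelet genes (without control replicate 2 or Sms-OE replicate 1) and to 6 among erythroid genes (without Sms-OE replicate 1). T and NK cell genes gave 4 without Sms-OE replicate 2 and 0 without each other library but control replicate 3. Peritoneal genes gave 0 without control replicate 1, control replicate 2 or Sms-OE replicate 2 and 2 without Sms-OE replicate 1 or 3, and 1 was lower without control replicate 1. Splenic genes gave 1 higher and 1 lower without control replicate 1. Dendritic cell genes gave 0 higher without control replicate 1, control replicate 2, Sms-OE replicate 2 or Sms-OE replicate 3. Neutrophil genes gave 0 higher without control replicate 2 and 1 lower without Sms-OE replicate 2. The part of these lists in the member values was not tested.

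**Figure D4:**
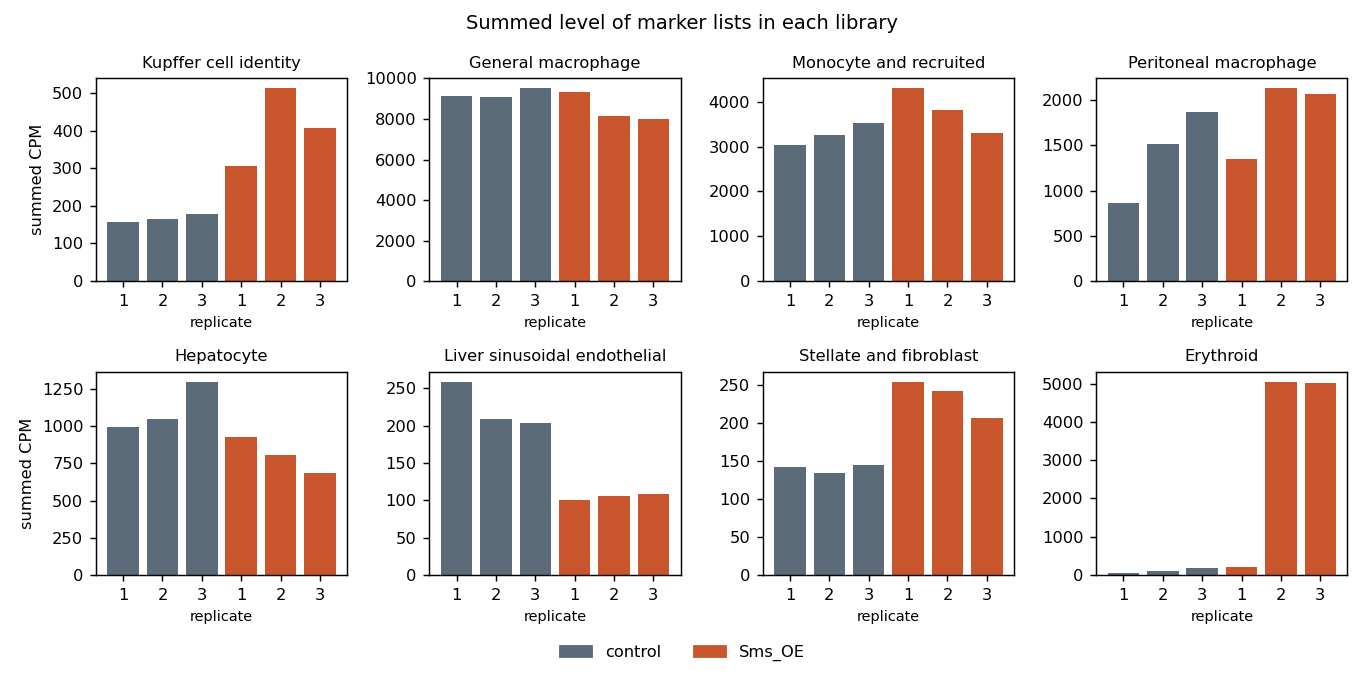
Summed CPM of 8 marker lists in each library, controls in grey and Sms-OE in orange, on linear axes from 0 that differ between panels. The identity genes and the stellate list are higher in every Sms-OE library, the hepatocyte and endothelial lists lower, and the erythroid list stands out in Sms-OE replicates 2 and 3 only.

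Genes next to the members on the chromosome were compared with them. Of 18 nearest protein-coding neighbours that are not members, 11 were tested, of which 1 was higher and 2 were lower. Fcrls, 94.1 kb from Cd5l and itself a macrophage gene, rose 1.70-fold (log2 0.76 ± 0.23 SE, adjusted p = 0.0364 by edgeR), while Fcrl1, 5.3 kb on the other side, gave 0.46 ± 0.20 (SE) and did not pass. Cox4i2, 16.8 kb from Id1, fell 2.34-fold and Rpl11, 90.1 kb from Id3, 1.56-fold. Havcr1, the relative of Timd4 that lies 31.2 kb from it, was at or below 0.209 CPM in every library. These neighbours were named after their values were seen.

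In all 12 alternative scalings, filters, tests, blocks, row sets and offsets other than the hepatocyte covariate, the 8 genes stayed higher with adjusted p at most 0.0116, and in each of 6 fits without 1 library with adjusted p at most 0.0377. The log2 fold change of Clec4f ranged from 1.76 to 2.12 over the 12 alternatives and from 1.52 to 2.096 over the fits without 1 library. With the mean log2 CPM of the hepatocyte markers as a covariate no member passed by edgeR, and no gene of the 18277 did (1523 genes and 4 members at an unadjusted p under 0.05). The fold changes of 9 members stayed positive in that fit, with a member median of 1.49 on the log2 scale, while standard errors grew. Clec4f was at 1.85 ± 0.94 (SE), against ± 0.26 without the covariate, Timd4 at 2.09 ± 0.61 and Vsig4 at 2.57 ± 0.80, whereas Id3 was at 0.37 ± 0.37 and Cd207 at -1.14 ± 1.58. That covariate had a Pearson r of -0.954 with the group over the 6 libraries, so the level of hepatocyte marker RNA and the group cannot be told apart in these samples. Whether this RNA came from host hepatocytes or from the injected hepatoma cells was not tested.

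**Figure D5:**
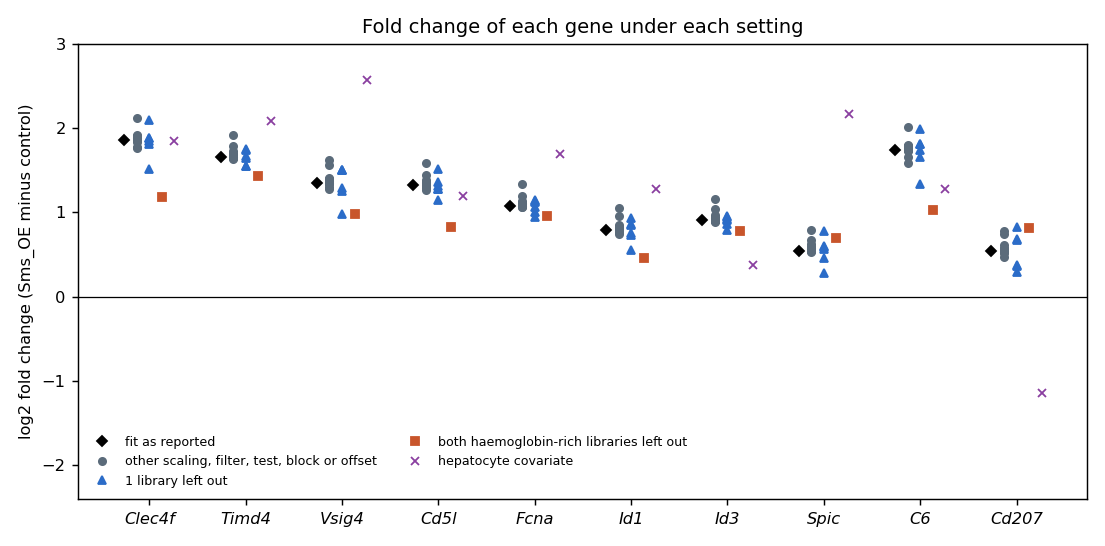
Log2 fold change (Sms-OE minus control) of each gene in the fit as reported (black diamonds), under 12 alternatives (grey circles), without 1 library each (blue triangles), without both haemoglobin-rich libraries (orange squares) and with the hepatocyte covariate (purple crosses). Points other than the Cd207 value with the covariate lie above 0, and Clec4f stays between 1.19 and 2.12.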

How the data were processed

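The authors deposited 1 table of estimated counts per gene, whole numbers without normalization. Per the submitters' processing notes, the tools included HISAT2 2.2.1 and StringTie 2.1.6, beside DESeq2, cutadapt 1.9 and FastQC 0.11.9. Build, annotation and strand setting: not given in the sources used here. Since the value 4 was more frequent than 3 or 5 in each library (1008 against 580 and 352 genes in control replicate 1), the counting error is uncertain. Totals were 49833764 to 58154006 counts per library, so 1 CPM stands for 48.0 to 59.9 counts. Symbols and gene coordinates came from GENCODE M21 (GRCm38) by Ensembl identifier, and promoters from RefSeq GRCm38.p6.

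Counts were filtered with filterByExpr, scaled by TMM and tested with edgeR 4.0.16 (R 4.3.3, robust glmQLFit and glmQLFTest) on all 6 samples, adjusting p by Benjamini-Hochberg across the 18277 genes that passed the filter, with 0.05 as the threshold. The steps were also tested on simulated data. CPM use TMM-scaled library sizes, and SE were derived from the F statistic. Alternatives used DESeq2 1.42.0 and limma 3.58.1 and others listed with their effects in the closing section. All members are named. The rule for every other list was the 4 called genes with the smallest p at most (failing any call, the 2 with the highest CPM). Some genes picked by that rule are not named in the text. Adgre1, Alb, Hp, Trf, Lrat, Gata6, Dll4, Id2, Id4, Gdf2 and Bmp10 fall outside that rule and were named with their values known. The same holds for Afp, Pecam1, Hgf, Col1a1, Col3a1, Pdgfrb, Reln, Alox15, Serpinb2 and Saa3. The members and lists were chosen with earlier results of these data known.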

Additional observations from a re-analysis of the deposited data

How the results depend on the processing

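Of the 10 genes, 8 were higher and 0 lower by edgeR in the fit as reported, with 8 and 0 in each fit without 1 library and in the alternatives other than those named here. Scaling on general macrophage genes gave 9 members, and 4241 genes higher and 1035 lower over the whole table. The hepatocyte covariate gave 0 members, 0 genes higher and 0 lower, with Cd207 reversed at -1.14, the other 9 positive (0.37 for Id3 to 2.57 for Vsig4) and adjusted p of the 10 members between 0.533 and 0.881. Length and GC offsets gave 1457 genes higher, with 4 LXR target genes lower and 1 monocyte gene higher. Leaving out both haemoglobin-rich libraries, chosen after seeing the data, gave 690 genes higher and 694 lower, and 6 members. Without 1 library, genes higher ranged from 1366 (without control replicate 2) to 2015 and genes lower from 1684 to 2473, beside 2293 and 2615. With the replicate number as a block, 2117 genes were higher and 2415 lower, and the same 8 members passed. Same-numbered libraries correlated at 0.24, 0.058 and -0.078 in their deviations from group means. Control replicates 1 and 2 correlated best with their own number, control replicate 2 by a small margin (0.058 against 0.053 with Sms-OE replicate 3). Control replicate 3 correlated best with another number (0.224 with Sms-OE replicate 2), so the numbers were not taken as pairs. Cd207 had 18 to 56 counts a library and an SD of 32.3% of the mean in the controls and 38.9% in Sms-OE.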
